A study of Mus musculus with 6 samples.

Results

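Prostanoids are short-lived lipid signals made from arachidonic acid, and 8 genes of their synthesis, reception and breakdown were followed in mouse skull bone. The genes were Ptgs1, Ptgs2, Ptges, Ptgis, Ptgds, Ptger2, Ptger4 and Hpgd. They were chosen from the measured values of Ptgs2, which was higher on the arrays of 13del-tg mice, and every array feature whose annotation gave exactly 1 of these symbols was taken. That gave 13 probe sets, each a group of probes read as 1 signal, for 7 of the 8 genes, out of 45037 probe sets other than array controls. Ptgs1 had no probe set of that kind and is not analysed here.

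The tissue was the parietal bone of the calvaria, the skull roof, at postnatal day 10. The tested animals were 13del-tg mice, which express a Col10a1-13del transgene and are described as having bone overgrowth, and the others were their wild-type littermates, called controls. Each genotype has 3 samples called biological replicates in the labels, but the columns of 13del-tg 1 and control 1 were identical for all 45101 probe sets. That array, the shared array below, is therefore shown apart, and 13del-tg 2 and 3 were set against controls 2 and 3. The promoter that drives the transgene and the number of lines are not given in the labels. Col10a1 itself, the collagen of hypertrophic cartilage, read 15689 and 11584 on the 13del-tg arrays and 149.8 and 158.2 on the controls. It read 152.2 on the shared array, against that array's 13del-tg label. Osteoblast markers were bright on every array, with a summed signal of 77662 and 79554 in 13del-tg and 68569 and 72149 in controls over 5 of the 8 listed genes, while Bglap, Runx2 and Spp1 had no probe set with a single symbol.

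In bone, prostanoid synthesis starts with a cyclooxygenase, the constitutive enzyme of Ptgs1 or the inducible one of Ptgs2, whose product is turned into a particular prostanoid by a terminal synthase. Prostaglandin E2 from osteoblasts acts through the cAMP-raising receptors EP2 and EP4, encoded by Ptger2 and Ptger4, and is known both to stimulate bone formation and to raise RANKL in osteoblast-lineage cells. Hpgd encodes the dehydrogenase that inactivates prostaglandins.

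The upstream sequence of Ptgs2 is shown because this was the gene that chose the set, and that of Ptgds because it was the member with the next largest positive difference. Both are the 250 bases before the gene's start in RefSeq, build GRCm38.p6. The Ptgs2 stretch is chr1:150099781-150100030 on the plus strand and the Ptgds stretch chr2:25469750-25469999 on the minus strand, both written 5′ to 3′. Capitals mark matches to the motifs searched.
Ptgs2 upstream: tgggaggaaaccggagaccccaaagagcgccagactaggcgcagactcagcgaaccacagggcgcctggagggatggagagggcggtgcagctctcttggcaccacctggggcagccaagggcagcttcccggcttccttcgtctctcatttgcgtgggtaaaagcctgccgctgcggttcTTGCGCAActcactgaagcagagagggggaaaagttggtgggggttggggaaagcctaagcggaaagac
Ptgds upstream: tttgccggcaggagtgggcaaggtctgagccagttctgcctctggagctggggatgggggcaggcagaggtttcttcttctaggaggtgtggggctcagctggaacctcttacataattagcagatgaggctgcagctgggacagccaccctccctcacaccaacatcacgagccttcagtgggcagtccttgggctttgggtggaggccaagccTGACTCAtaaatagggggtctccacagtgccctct
The capitals in Ptgs2 match TTGCNNAA, a C/EBP motif, from 69 to 62 bases before the start, and those in Ptgds match TGANTCA, an AP-1 motif, from 35 to 29 bases before it.
Ptgs2 element: tcaccactaCGTCACGTGgagtcc
This element lies at chr1:150100035-150100058, from 5 to 28 bases after the annotated start of Ptgs2. Its capitals hold TGACG, the short form of a cAMP response element, read on the minus strand, and the E-box CACGTG, which overlap by 2 bases.

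Both strands of 300-base windows, 250 before to 50 after the start, were searched for 7 motifs in the 7 members with a window. Ptgis had none in the sequence table. TGACG was in 20.8% of all 32851 windows, CACGTG in 7.15%, TTGCNNAA in 10.8% and TGANTCA in 7.81%. Among members, Ptgs2 alone had TGACG and CACGTG, Ptgds alone had TGANTCA, and TTGCNNAA was in Ptgs2 and, from 40 to 47 bases after the start, in Ptger2. TATAAA, the letters of a TATA box, was in 13.6% of windows and among members in Hpgd, where it lay from 5 to 10 bases after the start. A NF-kappaB motif (1.47% of windows) and TGATGNAA, a C/EBP-ATF composite motif (3.97% of windows), were in none of the members' windows. These are matches of letters in a window and show no binding.

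Ptgs2, the inducible cyclooxygenase, had the largest difference between the genotypes among the kept member probe sets. Its brighter probe set, 1417262_at, read 299.3 and 189 on the 13del-tg arrays, against 66.9 and 55.8 on the controls and 79 on the shared array. Both 13del-tg arrays were above both controls, and the mean signal was 244 ± 78.0 in 13del-tg and 61.4 ± 7.85 in controls (SD, n = 2 each). On the log2(signal + 16) scale the difference was 1.72 (SE 0.39), or 3.30-fold, given as a description with no p-value, because this gene chose the set. The controls lay close to 61.9, the level of the filter on dim probe sets, so the size depends on the pseudocount: it was 1.94 with 1 and 1.28 with 64. Without 13del-tg 2, the brighter of the pair, it was 1.41. With the shared array counted as 13del-tg it was 1.25, and with that array counted as a control it was 1.62.

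The second Ptgs2 probe set, 1417263_at, was dimmer and did not pass the filter. It read 114.9 and 39.1 in 13del-tg and 41.6 and 33.7 in controls, so 13del-tg 2 stood above the other arrays and 13del-tg 3 lay between the controls. The shared array read 39.5. Both probe sets were thus highest on 13del-tg 2, and on 13del-tg 3 they disagreed. Among markers of other tissues, those of skeletal muscle ran the same way as Ptgs2, in 5 of 6 genes, with sums of 155780 and 122282 in 13del-tg, against 114353 and 19930 in controls and 135070 on the shared array. Markers of neutrophils and macrophages, which can express Ptgs2 when activated, were lower in 7 of 7 and 4 of 7 measured genes. Of all 27022 kept probe sets, 15829 were lower. The neutrophil sum was 17944 on 13del-tg 2, and on 13del-tg 3, at 56492, it lay between the controls at 41866 and 60137. The part of any of these cells in the Ptgs2 signal was not tested.

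**Figure D1:**
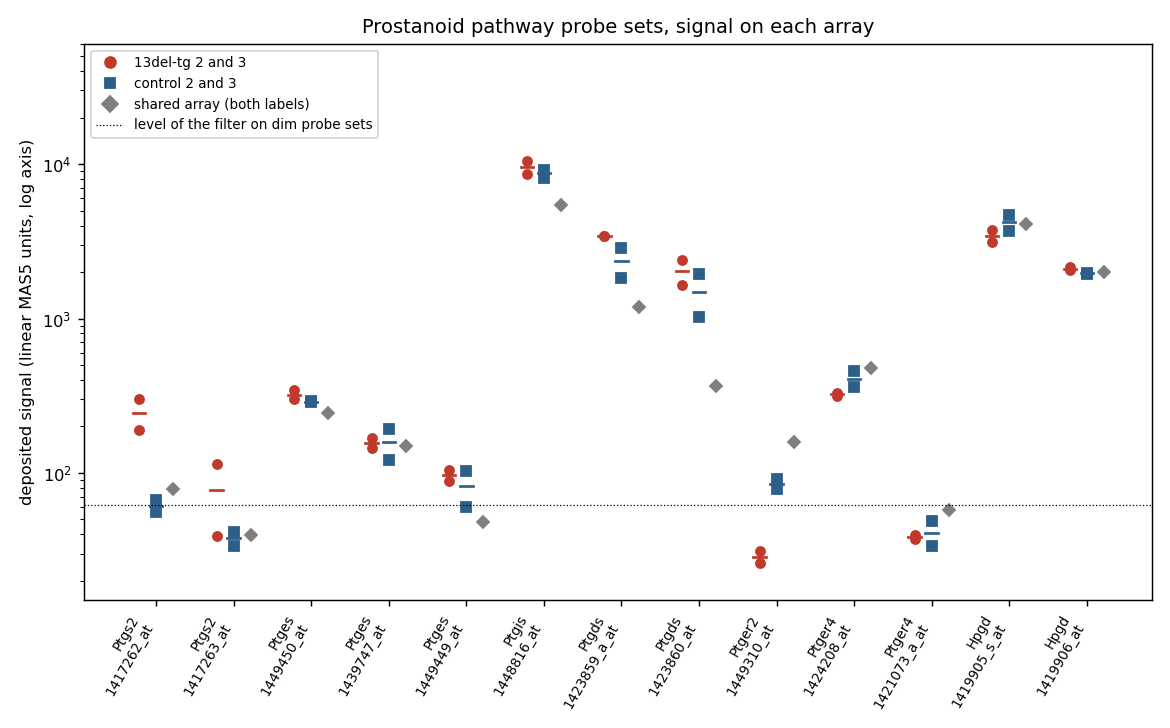
Deposited signal (linear units, log axis) of the 13 member probe sets on each array, with 13del-tg 2 and 3 as circles, controls 2 and 3 as squares, a bar at each pair's mean, and the shared array as a diamond. Ptgs2 1417262_at read 299.3 and 189 in 13del-tg and 66.9 and 55.8 in controls, Ptger2 read 31.2 and 26 against 91.5 and 79.2, and the dotted line is the filter level of 61.9.

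Among the terminal synthases, Ptges encodes the inducible microsomal enzyme that makes prostaglandin E2 and is often induced together with cyclooxygenase. Its signals differed little between the genotypes. The brightest of 3 probe sets, 1449450_at, read 300.8 and 343.4 in 13del-tg and 291.1 and 286.1 in controls, a log2 difference of 0.15 (SE 0.29). Its arrays did not overlap, but the difference was smaller than its standard error. The probe set 1439747_at read 145.7 and 168.4 in 13del-tg, inside the range of the controls at 121.9 and 193.7, with a difference of 0.022 (SE 0.37). The dim 1449449_at read 89.2 and 104.4 in 13del-tg and 60.6 and 103.3 in controls, a difference of 0.24 (SE 0.42). These 2 probe sets turned negative without control 2, at -0.28 and -0.084.

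Ptgis, which encodes prostacyclin synthase, an enzyme of vessel walls and mesenchymal cells, read 8676 and 10443 in 13del-tg and 8176 and 9218 in controls. The groups overlapped and the log2 difference was 0.13 (SE 0.19), which became -0.0035 with quantile normalization. Smooth muscle markers, of cells known for prostacyclin synthesis, had positive differences in 5 of 5 listed genes. These ran from 0.051 (SE 0.35) for Myh11 and 0.066 (SE 0.43) for Cnn1 to 1.43 (SE 0.83) for Des. The groups overlapped for Des, and its other kept probe set had the opposite sign. The summed signals of the 5 genes were 22251 and 16522 in 13del-tg and 16414 and 12046 in controls. Endothelial markers summed to 7532 and 5498 in 13del-tg and 7519 and 7163 in controls, and were lower in 5 of 6 genes. The part of these cells in the Ptgis signal was not tested. In bulk bone, fewer cells of a type and less RNA per cell cannot be told apart.

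Ptgds encodes the lipocalin-type enzyme that makes prostaglandin D2, a secreted protein abundant in the meninges. Its brighter probe set, 1423859_a_at, read 3413 and 3432 in 13del-tg and 2860 and 1838 in controls. The 13del-tg arrays agreed closely and lay above both controls, which differed widely, and the log2 difference was 0.57 (SE 0.25). The probe set 1423860_at read 2398 and 1655 in 13del-tg and 1938 and 1031 in controls, so the groups overlapped, with a difference of 0.49 (SE 0.33). Without control 3 the differences of the 2 probe sets were 0.26 and 0.039, and without control 2 they were 0.89 and 0.94. On the shared array they read 1193 and 364.4, below all 4 other arrays. Counting that array as 13del-tg left 0.072 and -0.31, and counting it as a control gave 0.89 and 1.13.

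Of 8 listed meningeal markers 7 were lower in 13del-tg, and their summed signal was 3528 and 3575 in 13del-tg, against 3801 and 4725 in controls and 2980 on the shared array. Pineal gland and photoreceptor markers, of tissue that also lies under the skull roof, were lower in 8 of 8 measured genes. They summed to 407 and 458 in 13del-tg, against 4620 and 9591 in controls and 603 on the shared array. The part of either tissue in the Ptgds signal was not tested. Of the pineal and photoreceptor genes, Cplx3 read 10.9 and 2.6 in 13del-tg, against 348.5 and 646.1 in controls. Tph1 read 14.3 and 43.6 in 13del-tg, against 881.2 and 1537.4 in controls. The 13del-tg signals of both genes were under the filter level. No detection calls were used, so signals this dim do not show whether that tissue was present.

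The receptor genes went the other way from Ptgs2 in sign. Ptger2, which encodes the EP2 receptor, read 31.2 and 26 in 13del-tg, against 91.5 and 79.2 in controls and 159.7 on the shared array. The 2 arrays of 13del-tg were under those of the controls and under the filter level of 61.9, so this probe set passed the filter through the control and shared arrays alone. The log2 difference was -1.18 (SE 0.44), with -1.55 at a pseudocount of 1 and -0.69 at 64, and is not a measured fold. It also varied with the use of the shared array, at -1.45 with that array as a control and -0.52 with it as 13del-tg. Ptger2 had 1 probe set, and its mean signal was 28.6 ± 3.68 in 13del-tg and 85.4 ± 8.70 in controls (SD, n = 2 each). Markers of erythroid cells were lower in 5 of 5 measured genes, summing to 3079 and 4119 in 13del-tg, against 11612 and 14028 in controls and 7442 on the shared array. Mast cell markers, of a cell type known to carry EP2, were lower in 7 of 7 genes, with 3498 and 1901 in 13del-tg, against 3606 and 2987 in controls and 3345 on the shared array. The part of either in the Ptger2 signal was not tested.

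Ptger4, which encodes the EP4 receptor, the receptor through which prostaglandin E2 is known to build bone in mice, read 316.3 and 331 in 13del-tg and 358.1 and 456.7 in controls on 1424208_at. The groups did not overlap, and the difference of -0.31 (SE 0.28) was about the size of its standard error. Leaving out control 3 gave -0.14 and leaving out control 2 gave -0.48. Counting the shared array as 13del-tg gave -0.13, and counting it as a control gave -0.39. The second probe set, 1421073_a_at, was below the filter, with 37.1 and 39.6 in 13del-tg inside the range of 33.6 and 48.6 in controls. Macrophage markers, of cells that also carry these receptors, summed to 21062 and 23059 in 13del-tg and 24369 and 24688 in controls. Of 7 measured genes 4 were lower, where 15829 of all 27022 kept probe sets were. The part of macrophages in the receptor signals was not tested.

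Hpgd, the inactivating dehydrogenase, was bright and nearly level. The probe set 1419905_s_at read 3722 and 3115 in 13del-tg and 4663 and 3715 in controls, a log2 difference of -0.29 (SE 0.21) with overlapping groups. The probe set 1419906_at read 2063 and 2142 in 13del-tg and 1951 and 1974 in controls, a difference of 0.098 (SE 0.20), and its whole range over the 5 arrays was 0.13. The 2 probe sets of Hpgd thus had opposite signs, each with a difference near its standard error or below it. By range over the 5 arrays the members fell between Hpgd 1419906_at and Ptgds 1423860_at, whose range was 2.67, and Ptgs2 1417262_at and Ptger2 followed with 2.13 and 2.06.

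**Figure D2:**
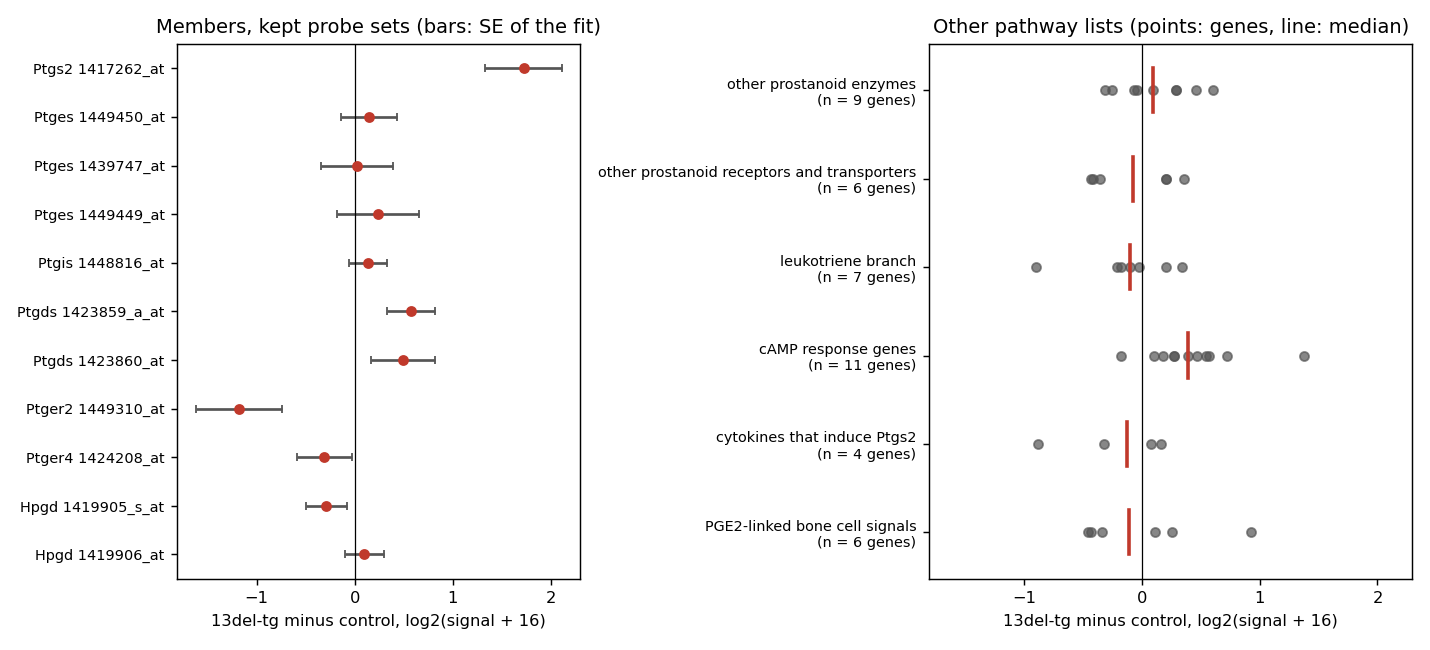
Left, the difference 13del-tg minus control on the log2(signal + 16) scale for the 11 kept member probe sets, with bars of 1 standard error of the fit; right, the same difference for each kept gene of 6 further lists, with a line at each list's median. Ptgs2 lies at 1.72 and Ptger2 at -1.18, the other members between -0.31 and 0.57, and the cAMP response genes have a median of 0.39.

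Of the 13 member probe sets, 11 passed the filter, and these were fitted with limma together with all 27022 kept probe sets. None of the 11 passed an adjusted p under 0.05, where 0.0074% of all kept probe sets were called higher and 0.0296% lower. Before adjustment, 2 member probe sets above the controls and 1 below had a p under 0.05, where 1.42% of all were above and 3.72% below. The arrays of the groups did not overlap for 4 members that were higher and 2 that were lower, where 12.6% of all were higher and 23% lower. The set was formed from this contrast with the values of Ptgs2, and Ptger2 passed the filter only through its higher arrays, so these counts describe the members and test nothing. The median difference of all kept probe sets was -0.075. Centring each array on its median moved it to 0.043, and turned the split behind those shares, 384 above and 1006 below, into 695 and 636. With 2 arrays against 2, an exact permutation test of a single value cannot go below p = 0.333.

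Other genes of the pathway were read from 6 lists of 55 genes, each gene by its brightest kept probe set, and no gene of any list passed an adjusted p under 0.05 by limma in either direction. From each list the genes of smallest unadjusted p are named. Of 11 further prostanoid enzymes 9 were kept, 5 positive and 4 negative, with a median of 0.097 and none at an unadjusted p under 0.05. Pla2g4a, the cytosolic phospholipase that frees arachidonic acid, had 0.29 (SE 0.24), with 862.6 and 876.6 in 13del-tg and 805.4 and 621.4 in controls. Prxl2b, a prostaglandin F synthase, had 0.61 (SE 0.34), the reductase Ptgr2 0.46 (SE 0.28, with 2 of 3 other kept probe sets of that sign) and Akr1b8, an aldo-keto reductase, 0.29 (SE 0.24). Of all 27022 kept probe sets, only 2 passed the threshold as higher and 8 as lower. That none of these 9 passed does not show that the supply and side branches were level.

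Of 9 further receptors and transporters 6 were kept, 3 positive and 3 negative, with a median of -0.074 and none at an unadjusted p under 0.05. Abcc4, an exporter of prostaglandins, had 0.36 (SE 0.24), and Slco2a1, the transporter that takes them up, -0.43 (SE 0.32, with both other kept probe sets also negative). Ptgdr, the receptor of prostaglandin D2, had -0.42 (SE 0.41), and Tbxa2r, the thromboxane receptor, -0.35 (SE 0.39). The remaining E-type receptor genes were Ptger3, at 138.2 and 147.7 in 13del-tg and 119 and 124.6 in controls, and Ptger1, which was below the filter. The median changed sign in 6 of 17 alternatives.

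The leukotriene branch, which competes for arachidonic acid, had 2 of 7 kept genes positive and a median of -0.11. That median changed sign in 3 of 17 alternatives, with 0.14 without 13del-tg 2, 0.052 without control 3 and 0.012 with arrays centred on the median. Alox12, a lipoxygenase of platelets and skin, was its 1 gene at an unadjusted limma p under 0.05. Of all kept probe sets, 3.72% were lower at that level. Alox12 read 96.5 and 169.9 in 13del-tg and 234.5 and 273.3 in controls, a difference of -0.90 (SE 0.37). Platelet and megakaryocyte markers were lower too, in 6 of 6 genes on the array, summing to 3799 and 7743 in 13del-tg and 8611 and 8251 in controls, and their part in the Alox12 signal was not tested. The leukotriene C4 synthase gene Ltc4s had 0.34 (SE 0.47), Alox5ap, which presents arachidonic acid to 5-lipoxygenase, -0.18 (SE 0.27), and the leukotriene receptor gene Cysltr1 0.20 (SE 0.41).

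Genes known to respond to cAMP, the second messenger of EP2 and EP4, were mostly higher. Of 11 kept genes 10 were positive, with a median of 0.39, where 41.4% of all kept probe sets were positive. The count rests on the brightest probe set of each gene. The only other kept probe set of Crem had the opposite sign, and 1 of 2 others of Pde4b had the same sign. In 4 of the 11 both 13del-tg arrays lay above both controls, where 12.6% of all kept probe sets did, and 1, Nr4a2, was higher with an unadjusted p under 0.05, where 1.42% of all were. Nr4a2, an orphan nuclear receptor of the immediate early kind, read 610.9 and 564.8 in 13del-tg, against 318.2 and 146.4 in controls and 322 on the shared array. Its difference was 1.37 (SE 0.38, adjusted p = 0.78 by limma), and 4 of its 5 other kept probe sets had the same sign. The phosphatase gene Dusp1 had 0.39 (SE 0.19), the clock gene Per1 0.57 (SE 0.34) and Nr4a3 0.73 (SE 0.44), whereas Rgs2 had -0.17 (SE 0.28). Several of these genes also respond to other stimuli. Nr4a3 read 92 and 125 in 13del-tg, against 42.7 and 78.8 in controls and 50.1 on the shared array. The mean log2 value of its controls and shared array was under the filter level, so it was kept only through its 13del-tg arrays. Its place among the 10 positive genes and the 4 without overlap is therefore partly set by the filter. The list's median was 0.12 without 13del-tg 2 and stayed positive in all 17 alternatives.

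Cytokines and growth factors known to induce Ptgs2 gave no shared direction. Only 4 of 8 were kept, with 2 positive and 2 negative and a median of -0.12, which became 0.075 with the 60th percentile filter, while Il1a, Tnf, Il6 and Fgf2 were below the filter. Il1b, the classic inducer, read 56.8 and 105.2 in 13del-tg and 117.6 and 209.6 in controls, a difference of -0.89 (SE 0.45). Neutrophil markers, of cells that make it, were lower in 7 of 7 genes, with sums of 17944 and 56492 in 13del-tg and 41866 and 60137 in controls, and their part in the Il1b signal was not tested. Tgfb1 had -0.32 (SE 0.22), Egf 0.16 (SE 0.37) and Bmp2 0.075 (SE 0.27).

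Of 7 bone cell signals linked to prostaglandin E2, 6 were kept, 3 positive and 3 negative, with a median of -0.11. Leaving out 13del-tg 2 gave -0.44 and leaving out 13del-tg 3 gave 0.15, and the median changed sign in 3 of 17 alternatives. Tnfsf11, which encodes RANKL, read 426.5 and 894.4 in 13del-tg and 334.8 and 303.8 in controls, and Igf1, a growth factor of osteoblasts, 9206 and 7344 in 13del-tg and 11585 and 11051 in controls. These were the 2 genes of the list at an unadjusted limma p under 0.05, 1 in each direction. Of all kept probe sets, 1.42% were higher and 3.72% lower at that level. The differences of Tnfsf11 and Igf1 were 0.92 (SE 0.37) and -0.46 (SE 0.19), and their other kept probe sets, 1 and 3, had the same signs. Lif had -0.44 (SE 0.32) and the osteoclast growth factor gene Csf1 -0.34 (SE 0.26, with 2 of 3 other kept probe sets of that sign). The osteoclast markers were lower in 8 of 8 genes, where 15829 of all 27022 kept probe sets were lower. For Ctsk the difference was only -0.0068 (SE 0.18). The osteoclast sums overlapped, at 62883 and 76878 in 13del-tg and 74353 and 85961 in controls.

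The genes whose profile was closest to that of Ptgs2 1417262_at were found by Euclidean distance between log2(signal + 16) values over the 5 distinct arrays, each centred on its own mean, among 12859 genes. The closest was Gchfr, the feedback regulator of GTP cyclohydrolase, at a distance of 0.78, with 371.9 and 491.9 in 13del-tg, against 139.5 and 142.5 in controls and 186.8 on the shared array. Next came Fosb, an AP-1 subunit, at 0.79, Nr4a2 at 0.86, the zinc transporter gene Slc30a2 at 0.86, Ythdc2, an RNA helicase that reads methylated RNA, at 0.88, and the carbonic anhydrase gene Car12 at 0.92. Fosb read 121.6 and 87.3 in 13del-tg, against 38.3 and 30 in controls and 68.6 on the shared array. Both of its controls were under the filter level, as was the mean log2 value of its controls and shared array. Fosb was thus kept, and could be compared, only through its higher 13del-tg arrays. All 6 had both 13del-tg arrays above both controls, which the choice by likeness to Ptgs2 brings with it. At a pseudocount of 64, 3 of them stayed among the 6 closest, Gchfr, Nr4a2 and Slc30a2, and without the shared array 1 did, Fosb.

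**Figure D3:**
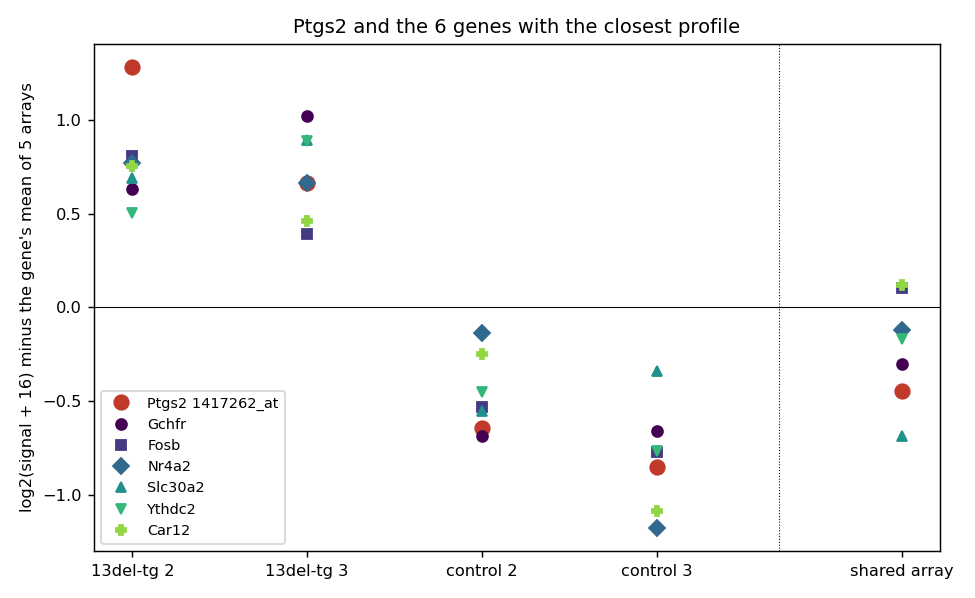
Values of log2(signal + 16) minus each gene's mean over the 5 distinct arrays, for Ptgs2 1417262_at and the 6 genes closest to it, with the shared array right of the dotted line. The genes lie above their mean on both 13del-tg arrays and below it on both controls, with Ptgs2 highest on 13del-tg 2.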

How the data were processed

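Total RNA of cryosectioned parietal bones was amplified, biotin-labelled and hybridised to Affymetrix mouse arrays of 45101 probe sets, 1 array per sample, per the labels' protocols and the platform annotation. What the authors deposited is an intensity per probe set, on a linear scale. The submitters' processing notes name MAS5, whose version is not given in the sources used here. Each array's trimmed mean (2% off each end) was 500.003 on every array, so the authors' values had been scaled to one level before deposit. No detection calls or scan dates were used, and a low MAS5 signal is noisy on a log scale. The number of arrays limits the precision.

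The deposited columns of 13del-tg 1 and control 1 were identical for 45101 probe sets, against 0.115% to 0.213% for other pairs of arrays, so 2 arrays per genotype were compared. Signals were transformed as log2(signal + 16), a scale that understates the change of dim genes. The 64 control probe sets were left out, and 27022 of the other 45037 were kept, those whose mean log2 value over the 5 distinct arrays reached the 40th percentile, 6.28 or a signal of 61.9. Gene names came from the platform annotation: 34945 probe sets had 1 symbol, 932 several and 9160 were unnamed here, and 34741 with 1 symbol matched the RefSeq gene table of GRCm38.p6. Differences, 13del-tg minus control, were fitted across all kept probe sets with lmFit and trended eBayes of limma 3.58.1 under R 4.3.3. P-values were two-sided and adjusted after Benjamini and Hochberg, with a threshold of 0.05. The fit had 2 residual and 6.01 prior degrees of freedom and a median standard error of 0.32. The code was checked on simulated arrays. The members and lists were chosen with earlier results of these data known. Genes were named by a rule: every member, up to 4 genes of each of 6 pathway lists by smallest unadjusted p, the 6 closest to Ptgs2 (predicted and Riken genes left out), and markers of 14 lists as sums; Ptger3, Ptger1 and Rgs2 were added after their values were seen. Where a gene had several kept probe sets, the brightest by mean stood for it in the lists. Alternatives, 17 in number, changed the pseudocount, filter, normalization, variance model, use of the shared array, replicate block or 1 left-out array.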

Additional observations from a re-analysis of the deposited data

Results flagged for a closer look

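The shared array was in neither group of the comparison, and 2 of the 11 kept member probe sets read higher on it than on both controls by more than the gap between the controls, as linear signals. Ptgs2 1417262_at read 79 there, with 299.3 and 189 on the 13del-tg arrays and 66.9 and 55.8 on the controls, and on the log2(signal + 16) scale its distance above control 2 was smaller than that gap. Ptger2 1449310_at read 159.7, with 31.2 and 26 on the 13del-tg arrays and 91.5 and 79.2 on the controls. The difference was not tested, since it is 1 array.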

How the results depend on the processing

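No member passed the threshold in 16 of 17 alternatives, and Ptgs2 and Ptger2 kept their signs in all 16 that kept their probe sets; both were lost at a filter at the 60th percentile. Ptgs2 1417262_at ran from 1.15 with the shared array under both labels to 2.03 without 13del-tg 3. With the replicate block, which leaves 1 residual degree of freedom, 330 probe sets were higher and 338 lower, with 1 member and 1 pathway gene among them, from which nothing is read: the member is Ptgs2, which chose the set, and the labels do not pair same-numbered animals. The deviations of 13del-tg 2 and control 2 from their group means correlated at 0.22 over 27022 probe sets. Against 2 higher and 8 lower probe sets as reported, there were 1 and 1 with a pseudocount of 1, with quantile normalization or with the 60th percentile filter, 1 and 0 without a filter, without the trend or with the shared array as a control, 0 and 8 with it as 13del-tg, and 0 and 0 under both labels. A pseudocount of 64 gave 5 lower and robust eBayes 18. Leaving out 1 array gave 1 to 199 higher and 5 to 43 lower, the most without control 2. Pathway genes past the threshold then ran from 0 to 1 (Nr4a2, without control 2). Such a fit has 1 array in a group, assumed to vary like the other pair. Of the 6 genes closest to Ptgs2, 3 stayed with a pseudocount of 64 and 1 without the shared array. The cause of these shifts was not tested. With 2 arrays per genotype and no detection calls, signals near 61.9 have no firm order.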

Other observations

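Of the 11 kept member probe sets, 5 read below all 4 other arrays on the shared array, where 20.9% of all 27022 kept probe sets did: Ptges 1449450_at (246.2) and 1449449_at (48.4), Ptgis (5423) and both of Ptgds (1193 and 364.4). Above all 4 were 2, Ptger2 (159.7) and Ptger4 1424208_at (478.3), where 27.1% of all kept probe sets were. The other 4, Ptgs2, Ptges 1439747_at (149.9) and both of Hpgd, lay within the range of the rest. Against the mean of controls 2 and 3, Ptgds 1423860_at was at -1.91 on the log2 scale, Ptgis at -0.68 and Ptger2 at 0.80. Of the 14 marker sums, 5 were below all 4 other arrays there, those of osteoblasts (47133), osteocytes (31623), osteoclasts (52349), macrophages (18909) and meninges (2980). The sums of endothelial cells (7892) and smooth muscle (23478) were above all 4, and the other 7 lay within. Of the marker lists not set beside a member, osteocyte markers summed to 37263 and 51709 in 13del-tg and 43877 and 50384 in controls, and chondrocyte markers to 14944 and 7011 in 13del-tg and 27452 and 15324 in controls, with 14278 for chondrocytes on the shared array. As the shared array carries labels of both genotypes, its readings are values of 1 array that was put in no group here. Its Col10a1 signal of 152.2 was near the controls at 149.8 and 158.2, against 15689 and 11584 in 13del-tg.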
